A study of Rattus norvegicus with 8 samples.

Results

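miR-203 (rno-miR-203 on the array) is a single microRNA (miRNA), and its level in rat pancreatic islets is described here across 8 arrays of 2 ages. Its members were found by name: the non-control features listed as miR-203, 2 probes with 10 features each per array, and those listed as miR-203*, its minor arm, again 2 probes with 10 features each. They are 2 of 677 miRNAs and 4 of 1644 probes on the array. The islets came from control Sprague Dawley rats, 4 arrays from rats 10 days old (P10) and 4 from males 3 months old (adult). Arrays of one age are labelled biological replicates. The number of animals behind an array and the sex of the P10 rats are not stated. The p-values below therefore measure the spread between these arrays. No array was of another tissue or of a treated animal. The comparison is between the ages, which the series title ties to beta-cell maturation, and sex may differ with age. miR-203 was selected on its values on these same arrays, namely its low adult level against P10, so its own difference between the ages is described without a p-value.

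A miRNA is a short RNA that guides a silencing complex to messenger RNAs, chiefly by pairing through its seed, bases 2 to 8 from the 5′ end. miR-203 is best known from the epidermis, where it is induced as basal progenitors leave the cell cycle and where it represses the transcription factor p63. It is commonly grouped with the miRNAs of epithelial cells. Islets are clusters of endocrine cells, mainly insulin-secreting beta cells, set in an exocrine pancreas of acini and ducts.

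The sequences below show which strand and which arm the array names refer to, with the seed in capitals, 5′ to 3′. They are RefSeq entries on the rat assembly GRCr8. Both miR-203 array names (2 of 2) and those of miR-3545 were assigned to entries, with the arms taken from standard miRNA naming.
miR-203 (RefSeq miR-203a-3p): gUGAAAUGuuuaggaccacuag
miR-203* (RefSeq miR-203a-5p): aGUGGUUCuuaacaguucaac
miR-3545-5p (RefSeq miR-203b-5p): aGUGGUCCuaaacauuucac
miR-3545-3p (RefSeq miR-203b-3p): uUGAACUGuuaagaaccacugg

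miR-203 lies at chr6:137020756-137020777 on the plus strand of GRCr8. Its gene Mir203 falls outside protein-coding genes, between Aspg and Kif26a, and overlaps 1 other gene, Mir3545, which is read from the opposite strand. The hairpin of 97 bases is shown to place the arm the array measures, in capitals at positions 52 to 73, after the star arm at positions 14 to 34.
Mir203 hairpin: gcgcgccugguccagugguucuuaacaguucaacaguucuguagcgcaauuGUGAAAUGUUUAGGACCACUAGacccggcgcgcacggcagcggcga

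All 20 bases of miR-3545-5p are complementary to the first bases of miR-203. Of 724 mature rat sequences from 437 genes in the RefSeq table, only miR-203 itself carries the seed UGAAAUG, so it has no seed family there. The closest other mature sequence, miR-3545-3p, is 5 single-base edits away.

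On the scanner's own scale, miR-203 was brighter on every P10 array than on any adult array. The brighter of its 2 probes had a processed signal (background-subtracted intensity, no scaling between arrays) of 121 ± 8.52 (SD over its features), 55.9 ± 6.98, 449 ± 7.58 and 157 ± 10.0 in the P10 samples, replicates 1 to 4. In the adult samples, in the same order, it was 17.7 ± 3.40, 25.5 ± 6.03, 42.0 ± 6.57 and 13.2 ± 3.01. P10 replicate 3 stood highest and adult replicate 4 lowest. The ages did not overlap in these means, but the lowest P10 mean was only 1.33 times the highest adult mean. The features of these 2 arrays overlapped, from 48.5 to 70.2 on P10 replicate 2 and from 31.1 to 50.1 on adult replicate 3. P10 means spanned 8.04-fold and adult means 3.17-fold.

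The scanner software's flags drew the same line less sharply. Of the brighter probe's features, 40 of 40 were well above background on P10 arrays and 12 of 40 on adult arrays, 10 of these 12 on adult replicate 3 and 2 on replicate 1. A weaker flag, positive and significant against background, was set for 40 of 40 features at each age. The dimmer probe was well above background in 33 of 40 P10 features and 3 of 40 adult features. The software called miR-203 detected on 7 of 8 arrays, all but adult replicate 4, and none of its features was saturated. The description of miR-203 as lost in adult islets goes further than these flags, since the software still called it detected on 3 of 4 adult arrays.

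Negative control features give the level of non-specific signal on each array. Of 434 such features per array, 1 was as bright as the brighter miR-203 probe on each of adult replicates 1, 2 and 3, and 17 (3.92%) were on adult replicate 4. On the P10 arrays these counts were 0, 2, 0 and 0 for replicates 1 to 4. The dimmer probe was less distinct in adult, where 158, 118, 5 and 155 of 434 controls were at least as bright on replicates 1 to 4. On the P10 arrays its counts were 1, 3, 0 and 0. It was weak on P10 replicate 2, where 3 of its 10 features were well above background.

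The other products of the locus stayed at background. Of 160 miR-203* features over the 8 arrays, 0 were well above background, and probe means ran from -7.47 to -1.48. For miR-3545-3p and miR-3545-5p, from the opposite strand, 0 of 160 features each were well above background, with probe means from -8.54 to 1.26 and from -4.73 to 0.24. All 3 were called not detected on 8 of 8 arrays, also on P10 replicate 3, where miR-203 was brightest. The deposited value table lists miR-203 and has no row for the other 3. At this signal an age difference in miR-203* or miR-3545 was not detectable.

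**Figure D1:**
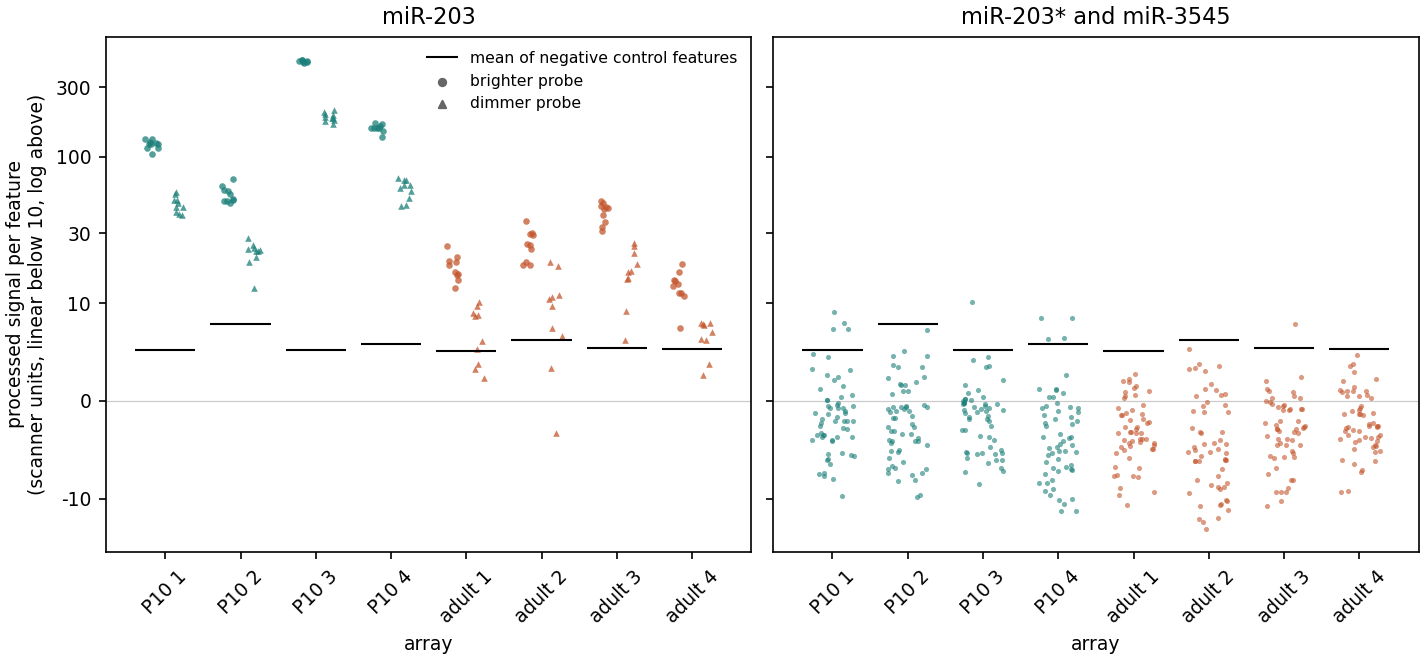
Processed signal (y axis, scanner units, linear below 10 and logarithmic above) of each feature by array (x axis), for the 2 miR-203 probes at left and for the probes of miR-203* and of both miR-3545 arms together at right. Features marked as outliers are left out, P10 arrays are green, adult arrays are orange, and black bars are the mean of 434 negative control features. miR-203 stands above the mean of the controls on every P10 array and comes closer to it in adult, while the other products stay at background.

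To set arrays side by side, each was divided by the 75th percentile signal of 278 probes, those that every one of the 8 arrays measured well above background. That percentile was 388, 440, 989 and 1690 for P10 replicates 1 to 4 and 1354, 1401, 1677 and 1284 for their adult counterparts, so P10 replicates 1 and 2 were the dimmest arrays. The number of miRNAs well above background ran from 188 to 238 on P10 arrays and from 218 to 248 on adult arrays. P10 and adult arrays lay in separate columns of 1 slide, and position on the slide and age cannot be told apart.

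On this log2 scale the brighter probe was at -1.68, -2.98, -1.14 and -3.43 in P10 replicates 1 to 4. In adult replicates 1 to 4 it was at -6.26, -5.78, -5.32 and -6.60. The ages were apart by 1.89 at their nearest, between P10 replicate 4 and adult replicate 3. P10 replicates 1 and 3 were high and replicates 2 and 4 low, a split that runs across the dim arrays (1 and 2) and the bright ones (3 and 4). The order within P10 depended on the scaling: replicate 4 was second brightest unscaled and the lowest after scaling. Replicate 3 was the highest and replicate 4 the lowest of the adult arrays on both scales.

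The P10 mean was -2.30 ± 1.07 (SD, n = 4) and the adult mean -5.99 ± 0.56 (SD, n = 4), a difference of -3.68 ± 0.61 (SE), or 12.9-fold lower in adult. Since the adult signal was mostly below the level that the scanner marks as well above background, a floor was set at -5.51, to which dim values were raised for all comparisons across miRNAs. With it, adult replicates 1, 2 and 4 were at the floor, the adult mean was -5.46 ± 0.09 (SD, n = 4) and the difference -3.15 ± 0.54 (SE). For this probe and floor, miR-203 was thus 8.90-fold lower in adult relative to the bright probes, and several other settings gave smaller differences. The dimmer probe gave -3.66 ± 0.61 (SE) without the floor. With the floor, which held it on all 4 adult arrays, the difference was -1.87. In a bulk sample, fewer cells with miR-203 and less miR-203 per cell cannot be told apart.

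The authors' own log2 values went the same way. miR-203 stood at 8.16, 6.81, 8.77 and 6.64 for P10 replicates 1 to 4 in the authors' deposited table, and at 4.59, 4.97, 5.33 and 4.36 for the adult ones. Replicates 1 and 3 were again the high P10 arrays, and the order of the adult arrays was the same as before. The means were 7.60 ± 1.04 (SD, n = 4) and 4.81 ± 0.42 (SD, n = 4), a difference of -2.78 ± 0.56 (SE).

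**Figure D2:**
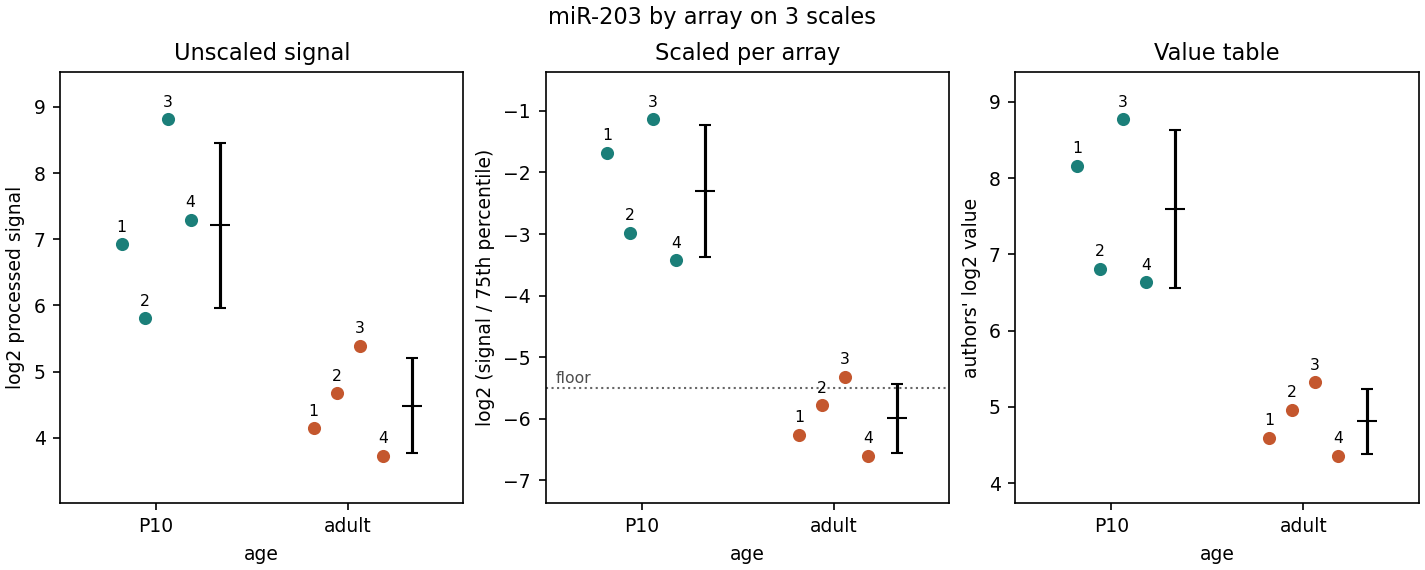
miR-203 by array on 3 scales: log2 processed signal of the brighter probe, the same divided by each array's 75th percentile with no floor (dotted line, the floor used elsewhere), and the authors' log2 value. Points are arrays with their replicate number, and bars give the mean ± SD of 4 arrays per age. P10 and adult points do not overlap on any of these scales, and the P10 points spread further than the adult ones.

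Many miRNAs separated the ages on these arrays, so a separation says little on its own. Of 238 miRNAs tested (those that 4 or more of the 8 arrays measured well above background), the ages did not overlap for 109 (45.8%), and for 48 (20.2%) with adult lower. The 238 include miR-203 itself. With limma, Benjamini-Hochberg adjusted p under 0.05, 113 of the 238 (47.5%) were called, 65 (27.3%) higher and 48 (20.2%) lower in adult. That split moved with the scaling, to 90 and 34 with the percentile over all probes, 58 and 17 without scaling, 49 and 9 with spike-in scaling, 33 and 46 with normexp, and 12 and 22 with cyclic loess. The median difference over the 238 was -0.01 here and 0.45, 0.94, 1.00, -0.30 and 0.15 in those settings.

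miR-203 was lower in adult in each of the 11 processing alternatives that recompute its values, and its ages did not overlap in 10 of them. The exception was cyclic loess over all probes, a curve fit between arrays. There P10 values lay between -3.99 and -3.48 and adult values between -5.59 and -3.70, a difference of -0.89. In these floored values 1151 to 1245 of 1644 probes per array were at the floor. Without scaling the difference was -2.40 and with spike-in scaling -2.36, but the tested miRNAs as a whole moved up in both. Relative to their median, the difference was -3.34 without scaling and -3.36 with spike-in scaling, against -3.14 in the main setting. By the same measure it stayed smaller with cyclic loess (-1.03) and with normexp (-1.68).

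**Figure D3:**
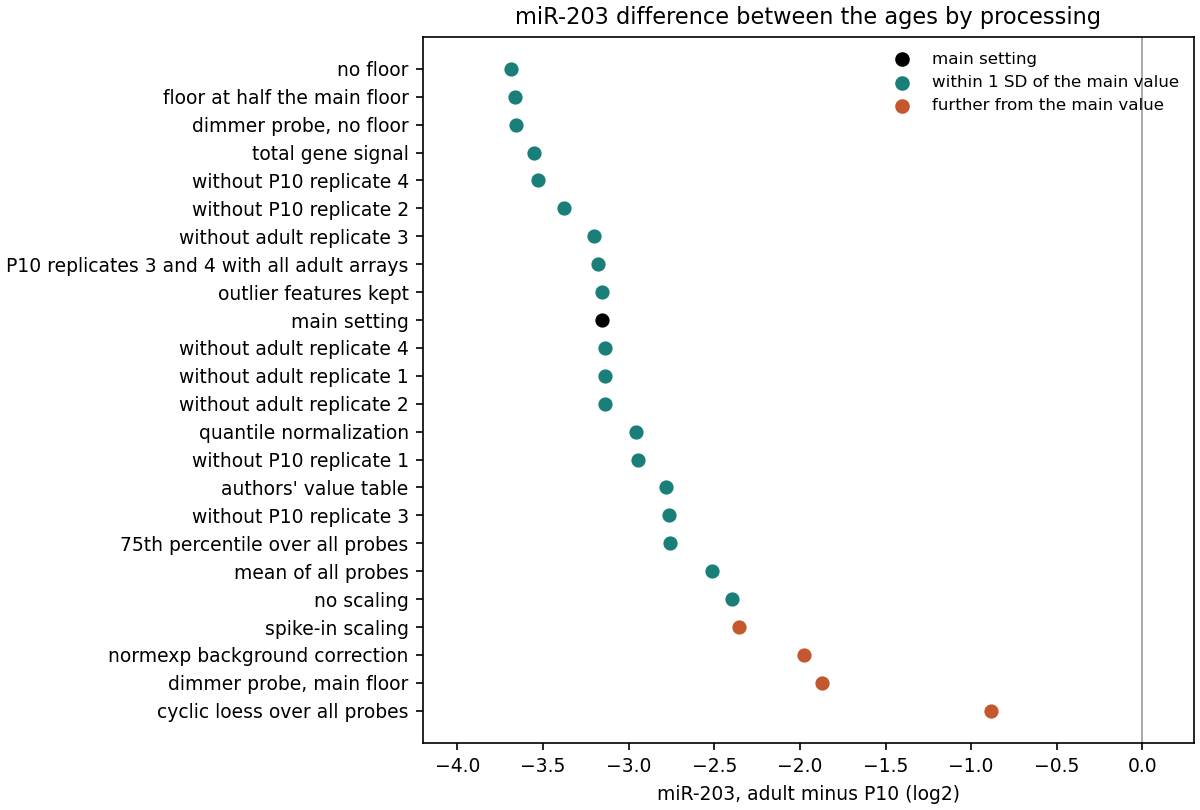
Difference of miR-203 between the ages (x axis, adult minus P10, log2) under each processing setting (y axis), in black for the main setting, in green where the value lies within 1 SD between arrays (0.76) of it, and in orange where it lies further off. Every point lies below 0, from -3.68 with no floor to -0.89 with cyclic loess over all probes.

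The miRNAs whose levels moved most like miR-203 over the 8 arrays were miR-194 and miR-192. Likeness was measured as the root mean square gap, in log2 units, between profiles centred on their own mean over the 8 arrays. Floored values were used, with miR-203 and miR-181d each at the floor on 3 adult arrays. The age difference for which miR-203 was selected is part of this measure. The gap was 0.49 for miR-194 and 0.49 for miR-192, then 0.79 for miR-130b, 0.80 for miR-17-5p and 0.80 for miR-181d, against a median of 1.77 over the 237 other tested miRNAs. Both miR-192 and miR-194 are abundant in gut epithelium and liver. They stayed among the 5 closest in 9 of 11 processing alternatives, all but cyclic loess and normexp.

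The first 2 of these share the P10 pattern of miR-203, and the other 3 do not. miR-194 was at 1.10, -1.48, 1.91 and -0.47 on P10 replicates 1 to 4 and between -3.57 and -2.83 in adult. miR-192 was at 1.63, -0.81, 2.46 and 0.01 on P10 replicates 1 to 4 and between -2.52 and -1.53 in adult. Both were high on P10 replicates 1 and 3 and low on 2 and 4, as miR-203 was, though their lowest P10 array was replicate 2 and that of miR-203 was replicate 4. By contrast, miR-130b, of a family known from proliferating and vascular cells, was at -1.34, -1.40, -2.57 and -3.04 on P10 replicates 1 to 4, higher on 1 and 2 than on 3 and 4. miR-17-5p, of the proliferation-linked miR-17/92 group, and miR-181d, of a family known from lymphocytes, had that second pattern too.

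Both were chosen here for their likeness to miR-203 over arrays of the 2 ages, so their own age differences are not independent of that choice. For miR-194 the difference was -3.41 ± 0.69 (SE, n = 4 per age; limma adjusted p = 0.00418), a call that was lost with spike-in scaling (-2.39). For miR-192 it was -2.78 ± 0.68 (SE, n = 4 per age; limma adjusted p = 0.0107), a call lost without scaling (-1.82), with spike-in scaling (-1.76), with cyclic loess (-1.46) and without the filter on dim miRNAs. miR-215, which shares the seed of miR-192, was at 1.02, -2.51, 2.07 and -0.64 on P10 replicates 1 to 4. It was well above background on 0 of 4 adult arrays and at the floor on all of them. Against that floor its difference was -5.49 ± 0.88 (SE, n = 4 per age; limma adjusted p = 0.00151), and -4.79 without P10 replicate 3, where it was highest. It met the filter for testing only through its 4 P10 arrays, so a call lower in adult was favoured in advance. The mature sequences of the 3, seeds in capitals, show that none shares the seed of miR-203.
miR-192 (RefSeq miR-192-5p): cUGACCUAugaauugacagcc
miR-215 (RefSeq miR-215): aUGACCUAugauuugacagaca
miR-194 (RefSeq miR-194-5p): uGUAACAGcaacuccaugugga

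In RefSeq, miR-192 lies near a copy of miR-194 on chromosome 1, and miR-215 near the other copy on chromosome 13. None of them is on chromosome 6 with miR-203.

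Within adult, the scaled order of arrays was the same for miR-203 without the floor, miR-192 and miR-194: replicate 3 highest, then 2, 1 and 4. The 75th percentile signal by which arrays were divided had that order too, from 1677 on replicate 3 to 1284 on replicate 4. The part of array brightness in these orders was not tested.

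Over the 4 P10 arrays alone, where no miR-203 value was at the floor, the closest profile was that of miR-378, a miRNA from an intron of a metabolic coactivator gene. Its gap was 0.44, followed by miR-31* at 0.52, miR-192 at 0.56, miR-347 at 0.58 and miR-31 at 0.58, with a median of 1.04 over 237 miRNAs. miR-31 is itself well known from epidermal keratinocytes. With 4 arrays many profiles can be alike, and this list is a description only. With cyclic loess 0 of these miRNAs stayed among the 5 closest. miR-192 dropped out with normexp and in the authors' value table, and miR-347 with the mean of all probes.

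The age difference of these P10 neighbours was smaller than the -3.15 of miR-203 in each case. miR-378 was at -1.70, -2.47, -1.85 and -3.37 on P10 replicates 1 to 4 and between -3.99 and -3.85 in adult. Its difference was -1.58 ± 0.34 (SE, n = 4 per age; limma adjusted p = 0.00613), a call lost without scaling (-0.62) and with spike-in scaling (-0.56). miR-31 (0.17, limma adjusted p = 0.513), miR-31* (-0.22, adjusted p = 0.504) and miR-347 (-0.37, adjusted p = 0.271) did not pass. Their ages overlapped, and each changed sign in at least 2 alternatives. Without P10 replicate 4, miR-347 passed (-0.59).

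**Figure D4:**
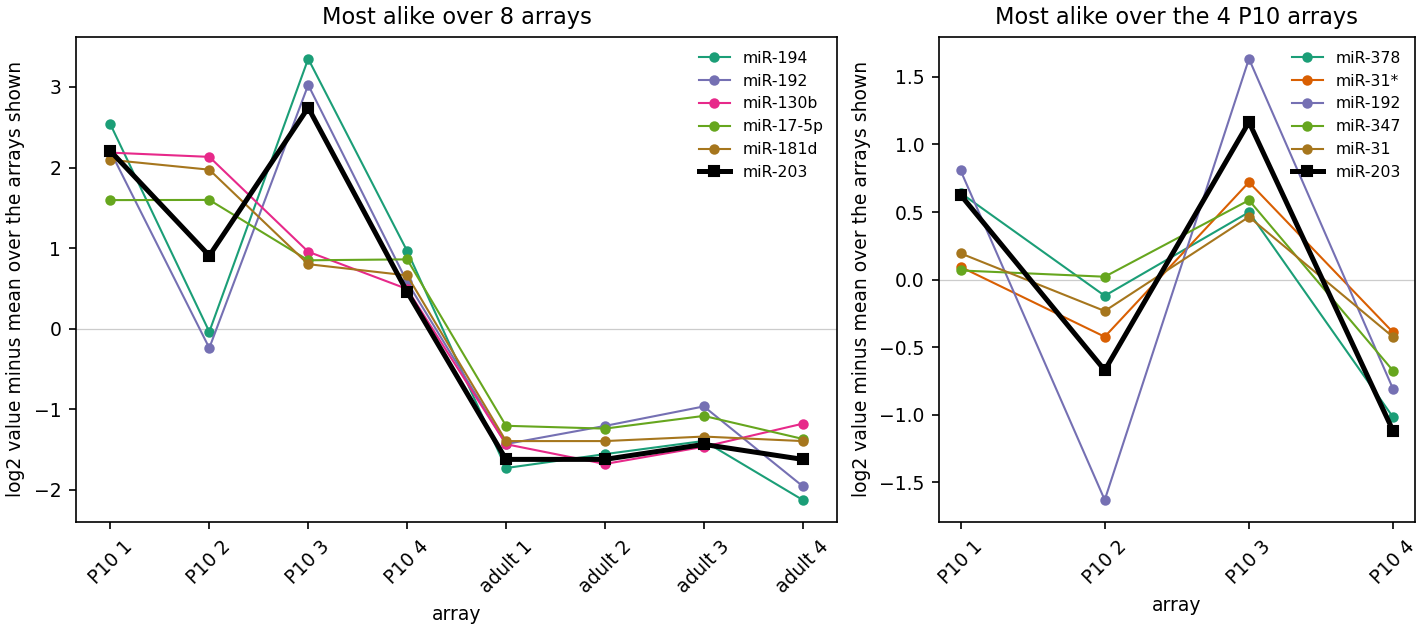
Log2 values centred on their mean (y axis) by array (x axis) for miR-203 (thick black) and the 5 miRNAs most alike over the 8 arrays (left) and over the 4 P10 arrays (right). Lines join arrays only to guide the eye, since replicates have no order. At left, miR-194 and miR-192 dip on P10 replicate 2 and peak on replicate 3 with miR-203, and miR-130b, miR-17-5p and miR-181d do not.

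Of 6 miRNAs that mark epithelial cells in general, the miR-200 family of 5 and miR-205, 2 were called higher and 0 lower in adult, with a median difference of -0.06. Over all tested miRNAs these shares were 27.3% and 20.2%, so the counts say little about the list, and most of its calls moved with the setting. miR-200c rose by 0.87 (limma adjusted p = 0.00155, n = 4 per age), a call lost with cyclic loess (0.16). miR-141 rose by 0.47 (limma adjusted p = 0.00926), but it was called lower with quantile normalization (-0.33, limma adjusted p = 0.0263), turned to -0.20 with cyclic loess and to -0.16 in the authors' value table, and lost its call with the mean of all probes (0.31). miR-200a (0.17), miR-200b (-0.35) and miR-429 (-0.29) did not pass, and each changed sign in 3 or 4 alternatives. miR-200a passed with the percentile over all probes (0.64). miR-200b passed with cyclic loess (-1.07) and without P10 replicate 4 (-0.59), and miR-429 passed without that array (-0.44).

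miR-205, like miR-203 a miRNA of stratified epithelium, was at -3.33, -3.14, -4.95 and -5.05 on P10 replicates 1 to 4 and between -5.51 and -5.17 in adult. It was highest on P10 replicates 1 and 2, not on 1 and 3. Its difference of -1.26 ± 0.46 (SE) had a limma adjusted p of 0.0530, passed in 6 alternatives (-1.57 to -0.38) and turned to 1.79 with cyclic loess. The summed level of the epithelial list was 3.43 to 4.00 on P10 arrays and 4.02 to 4.11 on adult arrays (log2), and of its members miR-205 alone was at the floor, on 1 adult array.

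The list of gut epithelium and liver markers holds miR-192 and miR-194, picked above as the profiles most like miR-203, so its pattern over the arrays is not independent of that choice. All 3 tested members were called lower and 0 higher in adult, against 20.2% of all tested miRNAs called lower, with a median of -3.41. The remaining tested member, miR-215, met the filter only through its P10 arrays, so this count was favoured in advance and says little about the list. The calls of miR-192 and miR-194 were lost in 4 and 1 alternatives, as given above, while the liver marker miR-122 was at the floor on all 8 arrays. The summed level of the list was 2.87, 0.17, 3.75 and 1.26 on P10 replicates 1 to 4 and -1.73 to -0.92 in adult. P10 replicates 1 and 3 had the most of it. The part of gut cells in the miR-203 values was not tested.

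Acinar markers had another pattern. Of miR-216a, miR-216b-5p and miR-217, 0 of 3 passed in either direction (median 0.51), against 47.5% of all tested miRNAs. With P10 replicates 3 and 4 alone miR-216a passed (2.80), and miR-217 passed there, without scaling and with spike-in scaling (1.59 to 1.72). miR-216b-5p changed sign in 6 alternatives. Their summed level was -0.06 and -0.32 on P10 replicates 1 and 2, -3.63 and -3.92 on replicates 3 and 4, and -2.12 to -1.12 in adult. P10 replicate 3, the array with the most miR-203, was thus among the 2 with the least acinar signal, and adult arrays lay between.

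The other marker lists were read against the shares of all tested miRNAs called, 47.5% in either direction, 27.3% higher and 20.2% lower in adult. Of 6 mesenchymal miRNAs, 3 were called lower (miR-199a-5p, miR-199a-3p and miR-214, all lost without scaling and with spike-in scaling) and 2 higher (median -0.56). The 2 higher, miR-143 and miR-140, lost their calls in 19 and 13 alternatives. Of 2 endothelial (median -0.10), 5 leukocyte (median 0.21) and 1 muscle miRNA tested (1.16), 0 passed in either direction. Alternatives brought calls for miR-126 (-0.78 with quantile normalization, -0.56 with P10 replicates 3 and 4 alone) and miR-126* (-0.46 with normexp, -0.45 with those 2 replicates), which changed sign in 4 and 9 others. The muscle miRNA, miR-133b, passed with the percentile over all probes (1.28) and without P10 replicate 4 (1.65). Both erythroid miRNAs tested, miR-451 and miR-144, were called higher (median 1.19), the latter turning to -0.32 with normexp and losing its call in 14 other alternatives, and the former losing its call without the filter. All 5 islet endocrine miRNAs tested were called higher (median 1.61), although miR-375 (0.47) turned to -0.41 and -0.30 in the authors' value table and with quantile normalization and lost its call in 15 other alternatives. miR-7b lost its call in 13, miR-7a in 3 and miR-153 in 2. All 6 of the miR-17/92 group were called lower (median -2.11), 4 of them losing the call with spike-in scaling and miR-17-5p with cyclic loess. Its member miR-18a was at the floor on all 4 adult arrays, so its difference of -1.96 was taken against that floor. Of this group, miR-17-5p was picked above for its likeness to miR-203 over both ages, so its call is not independent of that choice.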

How the data were processed

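Total RNA (100 ng per array) was labelled with cyanine 3, per the labels' protocols, and hybridised to 1-colour Agilent rat miRNA arrays. Per the file headers, the deposited intensity values are output of the scanner software Feature Extraction 10.7.3.1, and its processed signal is already background-subtracted. The authors also deposited a table of log2 values for 311 miRNAs, whose making the sources used here do not describe.

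Features marked as outliers (2.34% to 3.65% per array) were left out and a probe's other features averaged. Arrays were divided by the 75th percentile over 278 probes well above background on all arrays, raised to a common floor (log2 -5.51, each array's 1st percentile among its probes well above background, then the median of these) and log2-transformed. The probe with the highest mean stood for its miRNA. The 238 miRNAs that 4 or more of the 8 arrays measured well above background were tested with limma 3.58.1 in R 4.3.3, adult minus P10, with Benjamini-Hochberg adjustment at 0.05. This step was tested on simulated data. The number of arrays limits the precision. No 2 arrays held identical values (highest correlation 0.997).

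The miRNA, the marker lists and the alternatives were chosen with earlier results of these data known. Named were miR-203, the 5 tested miRNAs closest to it over 8 and over 4 arrays, miRNAs sharing its seed, and list members (epithelial, gut and liver, acinar, mesenchymal, endothelial, leukocyte, erythroid, muscle, islet endocrine and the miR-17/92 group). miR-155 and miR-486 matched no array name. miR-203 arms were assigned by standard miRNA naming, since the files give no probe sequences. The normexp alternative took each feature's median signal, no mean being in the files. The array design names the build rn4, and printed coordinates are those of RefSeq on GRCr8.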

Additional observations from a re-analysis of the deposited data

How the results depend on the processing

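The difference of miR-203 between the ages kept its direction in each alternative. It was closer to 0 than the main value of -3.15 by more than 1 SD between arrays (0.76) with cyclic loess over all probes (-0.89), with normexp (-1.98), with spike-in scaling (-2.36) and, chosen after seeing the data, on the dimmer probe with the floor (-1.87). For the dimmer probe, and with normexp (all at -3.80), the floor held all 4 adult arrays, and for the others the cause was not tested. Leaving out 1 array gave -3.53 to -2.77, and without the 2 dimmest arrays (P10 replicates 1 and 2), also chosen after seeing the data, it was -3.18. The count of miRNAs called, 113, fell to 75 without scaling, 34 with cyclic loess and 58 after scaling to spike-ins, for which the cause was not tested, and was 84 to 138 when 1 array was left out. With the replicate number as a block it was 95 and the difference of miR-203 stayed at -3.15. Deviations of same-numbered arrays correlated at 0.18, -0.09, 0.48 and -0.23 for replicates 1 to 4. Of the P10 arrays, replicate 3 alone correlated best with the adult array of its own number. These values show no general pairing by number and cannot exclude one. Signal over background limits what the adult arrays show, since 3 of 4 miR-203 values lay under the floor there.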

Other observations

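P10 replicate 4, the P10 array with the least miR-203 after scaling, had high values for both arms of miR-142, a leukocyte miRNA. miR-142-3p was at 1.36 on it and between -2.22 and -1.67 on the other 3 P10 arrays, and miR-142-5p was at -2.07 on it and at the floor on the other 3. Their differences between the ages were 0.99 and 0.85 and did not pass (limma adjusted p = 0.323 and 0.408), and without P10 replicate 4 both passed, at 1.83 and 1.71. With normexp miR-142-5p turned to -0.36. The other 3 leukocyte miRNAs tested differed less on that array. miR-223 was at -2.65 on it and at or below -2.85 on the other 3, and miR-146a at -1.22 and between -1.96 and -1.63. miR-150, a lymphocyte miRNA, lay within the range of the others (-0.56, with -0.55, -1.95 and 0.05 on P10 replicates 1 to 3). miR-146a passed without P10 replicate 4 (0.35), and miR-150 passed without P10 replicate 2 and with P10 replicates 3 and 4 alone (-1.24 to -1.14). The part of leukocytes in the miR-203 values was not tested.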
